A study of Mus musculus with 6 samples.

Results

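The NF-κB subunits and inhibitors are 10 genes listed by name: the 5 subunit genes Nfkb1, Nfkb2, Rel, Rela and Relb, the inhibitor genes Nfkbia, Nkiras1, Nkiras2 and Tnfaip3, and the kinase gene Ikbkb. Their members here are the TERT regions whose annotation names one of these genes as the one whose start site is nearest. There were 22 such regions of 41527, and they named 8 of the 10 genes.

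The assay was CUT&Tag for TERT, the telomerase reverse transcriptase: a transposase brought in by the antibody cuts and tags DNA near the protein. Primary neurons had been cultured from cortices and hippocampi of C57BL/6 embryos at embryonic days 15 to 18. They were given vehicle (DMSO, 3 samples, 0 µM) or the telomerase inhibitor BIBR1532 at 2 µM (3 samples), both for 24 h. The vehicle samples carry the label untreated in one field, which the treatment protocol specifies as DMSO. All 6 samples were stained with the same anti-TERT antibody, and no control antibody is among them. The deposited lists combine the 3 libraries of each condition and sort regions into those common to both pools, those higher in the first pool and those higher in the second. The names put BIBR1532 first and vehicle second and were read in that order, so the direction of each difference is likely and not stated outright. Each condition is therefore 1 pooled measurement without a value per sample, the depth is unknown, and no test across replicates can be made. In such pools, more TERT signal per cell and a larger share of cells with signal cannot be told apart.

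NF-κB is a family of dimeric transcription factors built from the 5 subunits, which share a DNA-binding domain and recognise κB sites. In resting cells IκB proteins such as the product of Nfkbia hold the dimers in the cytoplasm, and the IκB kinase, whose catalytic subunit is encoded by Ikbkb, marks IκB for destruction. In neurons the factor is known to respond to synaptic activity and injury, and in other cells TERT has been described as a partner of the Rela product. The genes for several subunits and inhibitors are themselves targets of NF-κB, so their promoters carry κB sites.

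The promoter sequences show where the shared signal fell. Promoter windows of 300 bases (250 before to 50 after a start site, RefSeq, build GRCm38.p6, the assembly that mm10 is built on) were given for 6 members: Nfkb2, Rel, Rela, Nfkbia, Nkiras2 and Tnfaip3. The windows of Rel and Nfkb2 are shown because a common region lay on them, and that of the ribosomal protein gene Rpl15 because it reaches into the start of Nkiras1, which runs the opposite way. Each is printed 5′ to 3′ on its gene's own strand, and capitals mark the bases inside the common region. The Rel window lies at chr11:23770920-23771219 on the minus strand, that of Nfkb2 at chr19:46304487-46304786 on the plus strand and that of Rpl15 at chr14:18270937-18271236 on the minus strand.
Rel: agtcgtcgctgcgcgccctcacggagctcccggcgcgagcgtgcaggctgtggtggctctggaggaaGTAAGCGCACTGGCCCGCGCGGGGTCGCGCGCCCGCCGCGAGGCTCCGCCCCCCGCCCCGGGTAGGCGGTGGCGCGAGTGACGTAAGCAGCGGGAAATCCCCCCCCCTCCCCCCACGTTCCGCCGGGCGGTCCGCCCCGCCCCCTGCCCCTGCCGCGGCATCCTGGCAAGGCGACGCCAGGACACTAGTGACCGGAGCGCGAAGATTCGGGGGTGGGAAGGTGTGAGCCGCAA
Nfkb2: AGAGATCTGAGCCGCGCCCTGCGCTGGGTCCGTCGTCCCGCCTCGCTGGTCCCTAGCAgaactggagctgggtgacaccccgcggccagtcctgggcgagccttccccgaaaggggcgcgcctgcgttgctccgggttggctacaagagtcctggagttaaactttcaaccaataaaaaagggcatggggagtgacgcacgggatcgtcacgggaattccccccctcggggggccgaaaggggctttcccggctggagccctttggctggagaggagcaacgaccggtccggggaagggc
Rpl15: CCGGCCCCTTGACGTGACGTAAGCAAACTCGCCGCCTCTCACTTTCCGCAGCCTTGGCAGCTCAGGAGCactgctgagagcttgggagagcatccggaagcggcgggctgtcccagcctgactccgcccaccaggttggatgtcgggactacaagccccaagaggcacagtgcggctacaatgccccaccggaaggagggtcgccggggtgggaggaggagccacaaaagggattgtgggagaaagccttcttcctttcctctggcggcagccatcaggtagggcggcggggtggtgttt

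The common region covered 233 of the 300 bases at Rel and 58 at Nfkb2. At Rel the covered part held 2 overlapping matches to the κB consensus, GGGAAATCCC and GGAAATCCCC, starting 92 and 91 bases before the start site. It also held 5 of 5 GC boxes (GGGCGG on either strand) of the window. At Nfkb2 the matches GGGAATTCCC, GGAATTCCCC and GGGGCTTTCC lay nearer to the start site (39, 38 and 11 bases before it) and outside the common region. This Nfkb2 window held 0 GC boxes. The Rpl15 window held 2 GC boxes, both outside the common region, and 0 κB matches. The table holds 3 Nfkb2 windows, and the others, which overlap each other, held 2 and 1 GC boxes and 2 and 1 κB matches, with no region on them.

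Matches without a TERT region were found at Nfkbia and Tnfaip3. The Nfkbia window held GGAAATTCCC at 29 bases before the start, and the window at the 5′ end of Tnfaip3 held GGGACACCCC and GGAAATCCCC at 125 and 12 bases before it. Neither window was touched by a region of any list. The windows of Nkiras2 and Rela held 0 κB matches. Over all 32851 windows 8.46% held a κB match, against 10.8% of the 4037 windows that overlapped a common region. GC boxes were in 35.7% and 74.2% of them, and the median G and C content was 52.7% and 62.7%. Windows on condition-specific regions had shares near those on common regions. A κB match was in 10.1% (BIBR1532) and 10.2% (vehicle) of them, and a GC box in 62.9% and 67.8%. A match to these letters is a description of the sequence, and TERT signal and base composition moved together over all promoters. The part of base composition in the signal was not tested.

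Over the 10 genes, shared signal was found at a larger share than over all protein-coding genes. A common region named 6 members (Nfkb1, Nfkb2, Rel, Relb, Nfkbia and Nkiras1), or 60.0%, against 23.9% of 21887 protein-coding genes. For a common region in the promoter class the members were Nfkb2, Rel and Nkiras1, 30% against 14.2%. When a distance of at most 1 kb replaced the promoter class, Relb joined them, giving 40.0% against 19.2%. At least 1 region of any list named 8 members against 59.1% of genes. The 10 genes were chosen by name with earlier results of these data known, so these shares describe the lists only. With 10 genes, 1 gene is 10.0 percentage points. Of 5 IκB genes outside the 10, 1 (20.0%) had a common region, and of 72 other NF-κB pathway genes 24 (33.3%).

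Condition-specific regions named the members in equal numbers. The members had 8 regions in each of these lists, so BIBR1532 made up 50% (exact Clopper-Pearson 95% interval 24.7 to 75.3, counting error only), against 46.5% of all 34715 condition-specific regions. The interval treats regions as independent, which regions of 1 gene are not, and 4 BIBR1532 and 3 vehicle regions lay at Nfkbia. BIBR1532 regions named 5 members (50%, against 34.5% of protein-coding genes) and vehicle regions 5 (50%, against 37.5%). Both kinds named Nfkb1, Nfkbia, Rela and Tnfaip3, 40.0% of members against 20.0% of genes. Regions of the promoter class were few: the BIBR1532 list had 1 member, Nkiras1 (6.89% of genes), and the vehicle list 1, Relb (7.37% of genes). A condition-specific region of any class lay within 1 kb of the start at Nfkb1, Nkiras1 and Relb, 30% of members against 21.4% of genes. The equal split depends on the measure. In base pairs the BIBR1532 share was 24.2%, or 68.0% without the widest region, at Nfkb1. Over all genes BIBR1532 regions held 6616024 of 14072022 condition-specific base pairs. Within 10 kb of the start site the members' share was 80%, from only 4 BIBR1532 regions and 1 vehicle region. Over all genes 10450 of 16153 BIBR1532 regions (64.7%) and 12691 of 18562 vehicle regions (68.4%) lay beyond 10 kb. The BIBR1532 share within 10 kb was not computed over all genes, so the 80% has no matching background here. Had the lists been named in the other order, the BIBR1532 shares given here would be the vehicle shares.

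**Figure D1:**
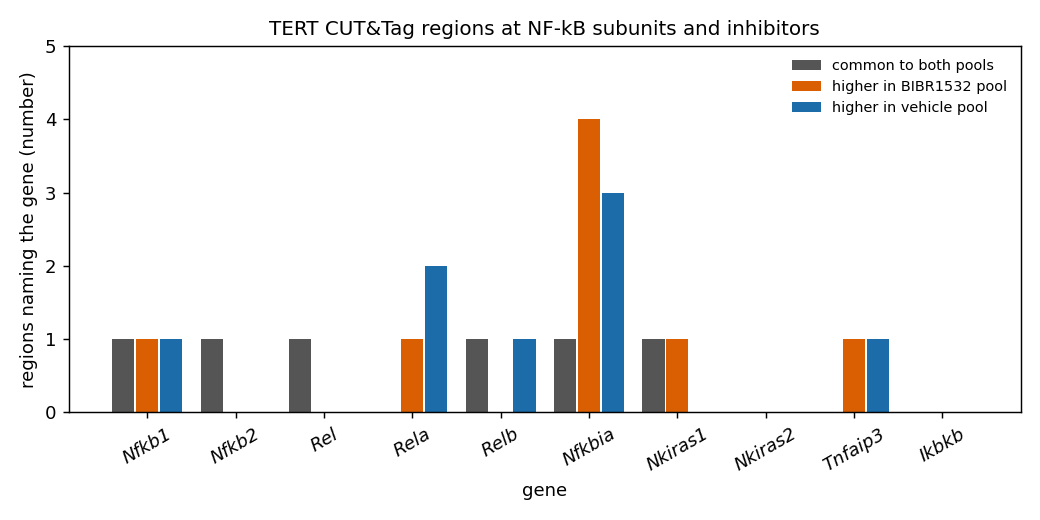
Number of TERT regions (vertical axis) that name each of the 10 genes (horizontal axis), with a bar for each list: common to both pools, higher in the BIBR1532 pool and higher in the vehicle pool. Nfkbia has 8 regions, 4 of them in the BIBR1532 list, and Nkiras2 and Ikbkb have 0.

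Among the subunits made as precursors, Nfkb2 had shared signal at a promoter within the gene and Nfkb1 in an intron. Nfkb2, which is processed in the non-canonical pathway, was named by 1 region, common, 175 bp wide and centred 280 bp before a start site. This region lay 3375 bp past the RefSeq 5′ end of the gene, so that start site is an internal one. The score of the region was 0.0206. The authors' score is known from the MACS2 program as a log10 likelihood ratio between the pools. All 6812 common regions lie under the authors' limit of 1, and a low score marks little evidence of a difference between the pools. Such a ratio also depends on the amount of signal, which is not given per pool. It therefore does not rank how even regions are. Of the common regions 13.2% scored as low as the Nfkb2 region or lower. That region also lies within the non-coding gene 4833438C02Rik, which overlaps Nfkb2.

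Nfkb1, processed to the subunit that lacks a transactivation domain of its own, had 1 region in each list, and they lay far apart. The BIBR1532 region was in intron 1 of 24, 775 bp after the start site, with a score of 6.50 and a width of 120 bp, the least in its list. The common region was in intron 9 of 24, 77.1 kb into the gene, with a score of 0.0412. The vehicle region was intergenic, 52.4 kb before the gene, and 8673 bp wide, wider than 99.9% of the vehicle list. It had the score of 5.19 that 9312 vehicle regions share (50.2% of that list).

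The 3 subunits with a transactivation domain each showed another arrangement. Rel, best known in lymphocytes, had 1 common region of 457 bp centred 45 bp after its start site, with a score of 0.284, and no condition-specific region. Relb, the partner of the Nfkb2 product, had a common region of 847 bp in intron 1 of 10, annotated as a CpG island and centred 451 bp after the start. It was wider than 98.2% of common regions. A vehicle region of 149 bp lay on the Relb start site itself (9 bp before it) and overlapped the common region by 38 bp. Its score of 1.11 stood just above the authors' limit: 0.0269% of the vehicle list scored as low or lower.

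Rela, the subunit of the most abundant NF-κB dimer, had no region at its start site. Its 3 regions lay beyond the other end of the gene, 11.2 to 11.8 kb from the start, between Rela and Sipa1. The BIBR1532 region came first (206 bp wide, score 1.29, a value that 494 regions of that list share). The vehicle regions followed after 134 and 419 bp, at scores of 7.35 and 7.11 and widths of 163 and 162 bp. A short stretch thus held regions of opposite direction. Equal signal does not score equally in the lists, so scores were read only within a list.

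**Figure D2:**
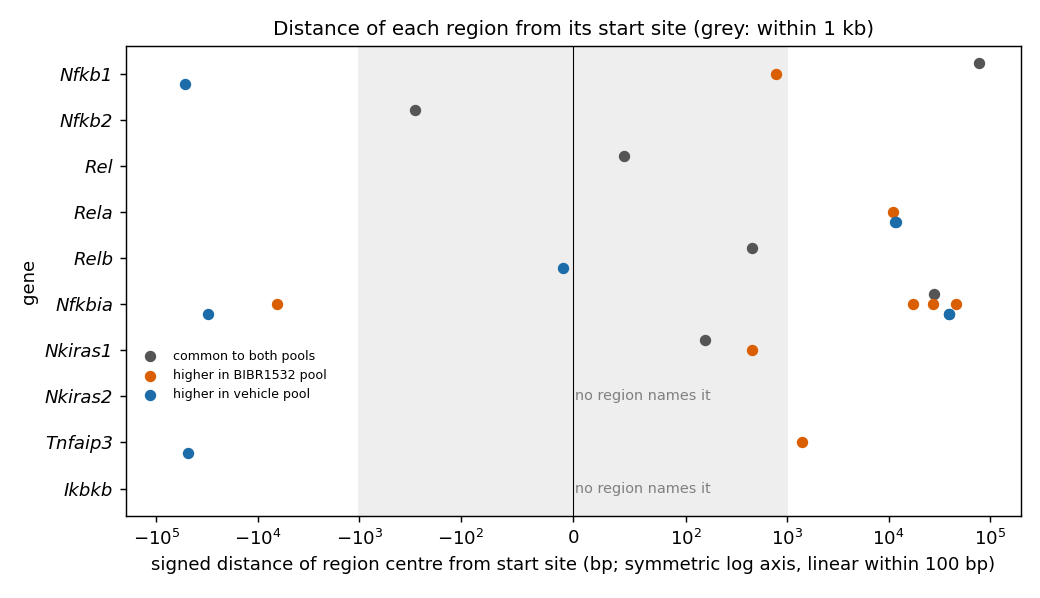
Signed distance in base pairs of each region centre from the annotated start site (horizontal axis, symmetric log scale, linear within 100 bp), with 1 row per gene and colours for the lists. Common regions of Nfkb2, Rel, Relb and Nkiras1 lie within 1 kb (grey), whereas the regions of Nfkbia and Rela lie 6.5 kb or more away.

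Nfkbia, the gene of the inhibitor IκBα, carried the most regions and none at its promoter. It was named by 8 regions, a number that 2.55% of protein-coding genes reached. They were 1 common, 4 BIBR1532 and 3 vehicle regions, all annotated as intergenic, and 7 of the 8 lay more than 10 kb away. Such a distance is frequent in these lists: 64.7% of all BIBR1532, 68.4% of all vehicle and 18.5% of all common regions lay beyond 10 kb. Intergenic were 37.9%, 39.1% and 13.5% of them. Few annotated genes lie around Nfkbia: the nearest on the downstream side, Gm36571, is 56812 bp from it.

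The highest-scoring of the 4 BIBR1532 regions lay 27.5 kb beyond the Nfkbia start. That BIBR1532 region, 624 bp wide at positions 55464856 to 55465479 on chromosome 12, scored 19.17, rank 10 of 16153 regions in its list. A common region of 153 bp with a score of 0.402 lay 254 bp from it, and 91.6% of common regions scored as low or lower. The other BIBR1532 regions scored 7.35 at 17.6 kb, 6.37 at 45.8 kb and 6.34 at 6.50 kb. The last stood on the other side of the gene, before its start, inside the non-coding gene Gm36634.

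Both condition-specific lists held Nfkbia regions at the shared score of their list. Of the 3 vehicle regions, those at 39.4 and 39.8 kb had that score of 5.19 and were annotated to the same LTR repeat, MTEa-int. The third lay 31.4 kb before the gene at a score of 6.54, and 77.3% of the vehicle list scored as low or lower. The BIBR1532 region at 6.50 kb had the shared score of 6.34. For the BIBR1532 region at 45.8 kb, 71.9% of its list scored as low or lower. BIBR1532 regions thus stood on both sides of the gene, as did the vehicle ones.

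Nkiras1 and Nkiras2 encode κB-Ras proteins, small GTPases that bind IκB proteins and slow their breakdown. At Nkiras1 the common region (243 bp, centred 153 bp after the start site) scored 0.913, rank 1 of 6812, the highest score of all regions called common. A BIBR1532 region of 465 bp, centred 445 bp after a start site, overlapped it by 62 bp. Its score was 2.78, and 14.8% of the BIBR1532 list scored as low or lower. By construction common regions lie under the authors' limit of 1 and condition-specific regions above it, so these scores differ as in any such pair. The span of Rpl15 ends 149 bp from that of Nkiras1 and Rpl15 runs the other way, and the common region covered 69 bases of its window. The region therefore lies at the start of both genes.

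Nkiras2 was named by no region, although a common region lay inside it. This region, 630 bp wide at positions 100619341 to 100619970 on chromosome 11, was annotated to the chaperone gene Dnajc7, in exon 1 of 14. Dnajc7 overlaps the start of Nkiras2 by 1112 bp on the opposite strand. The region centre was 513 bp from the Dnajc7 start and 474 bp from the 5′ end of Nkiras2, and the score was 0.0461. It covered all 300 bases of a Dnajc7 window. Counted by the RefSeq gene span in place of the nearest start site, a common region lay in 6 members (Nfkb1, Nfkb2, Rel, Relb, Nkiras1 and Nkiras2), 60.0% against 20.9% of protein-coding genes. By the same rule a BIBR1532 region lay in 3 members (30% against 25.6%) and a vehicle region in 1 (10.0% against 28.3%).

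Tnfaip3 was named by 2 regions and Ikbkb by none. Tnfaip3, which encodes the ubiquitin-editing enzyme A20 that ends NF-κB signalling, had a BIBR1532 region in intron 1 of 8, 1.39 kb after its start. It also had a vehicle region 48.4 kb before the gene, inside the non-coding gene Gm51814. Both had the shared score of their list (6.34 and 5.19). Ikbkb was named by 0 regions, and the nearest region of any list was a BIBR1532 region at the promoter of its neighbour Polb, 4781 bp from the gene, with a score of 1.32.

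**Figure D3:**
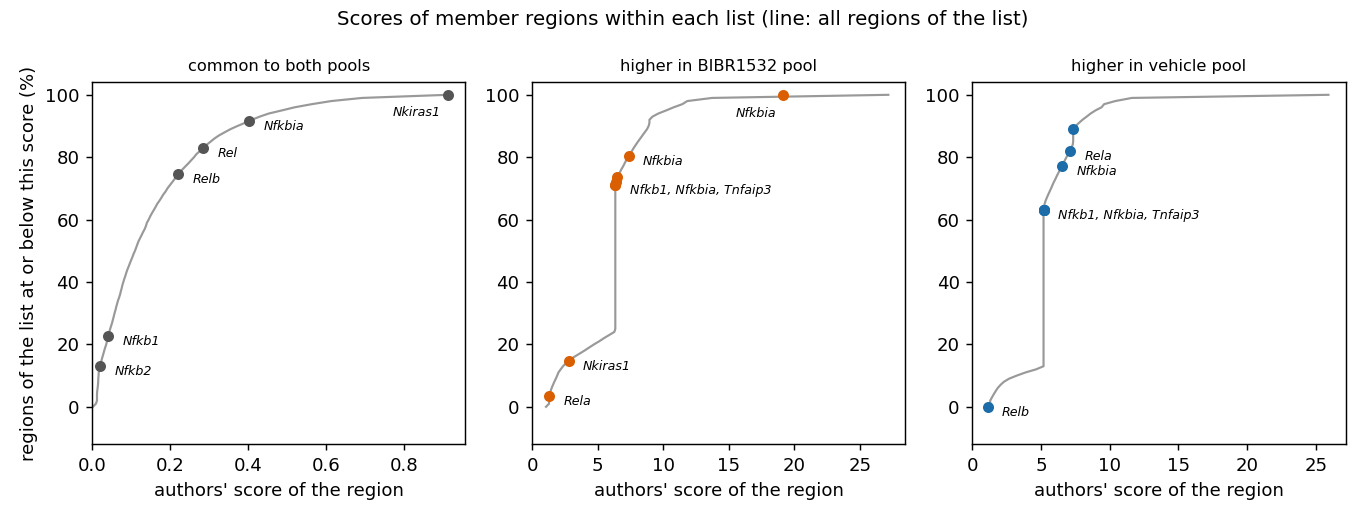
Authors' score (horizontal axis) against the percentage of the list at or below that score (vertical axis), with 1 panel per list, a line for all its regions and points for the regions of the 10 genes. Nkiras1 is at the top of the common list (0.913), an Nfkbia region near the top of the BIBR1532 list (19.17), and the Relb vehicle region at the bottom of its list (1.11).

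Regions of different lists stood side by side at 4 of the genes: Nkiras1, Relb, Rela and Nfkbia. Within 1 kb of a region from another list were 3 of 6 common regions of the members (50%, against 38.3% of all common regions), 3 of 8 BIBR1532 regions (37.5% against 12.4%) and 3 of 8 vehicle regions (37.5% against 11%). Overlap of a common with a condition-specific region, as at Nkiras1 and Relb, was found for 4.95% of all common regions. No BIBR1532 region overlapped a vehicle region anywhere (0 of 16153), which the sorting by direction into 1 list or the other largely fixes. Regions of 1 gene share a locus and are not independent, so these counts rest on 4 loci.

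**Figure D4:**
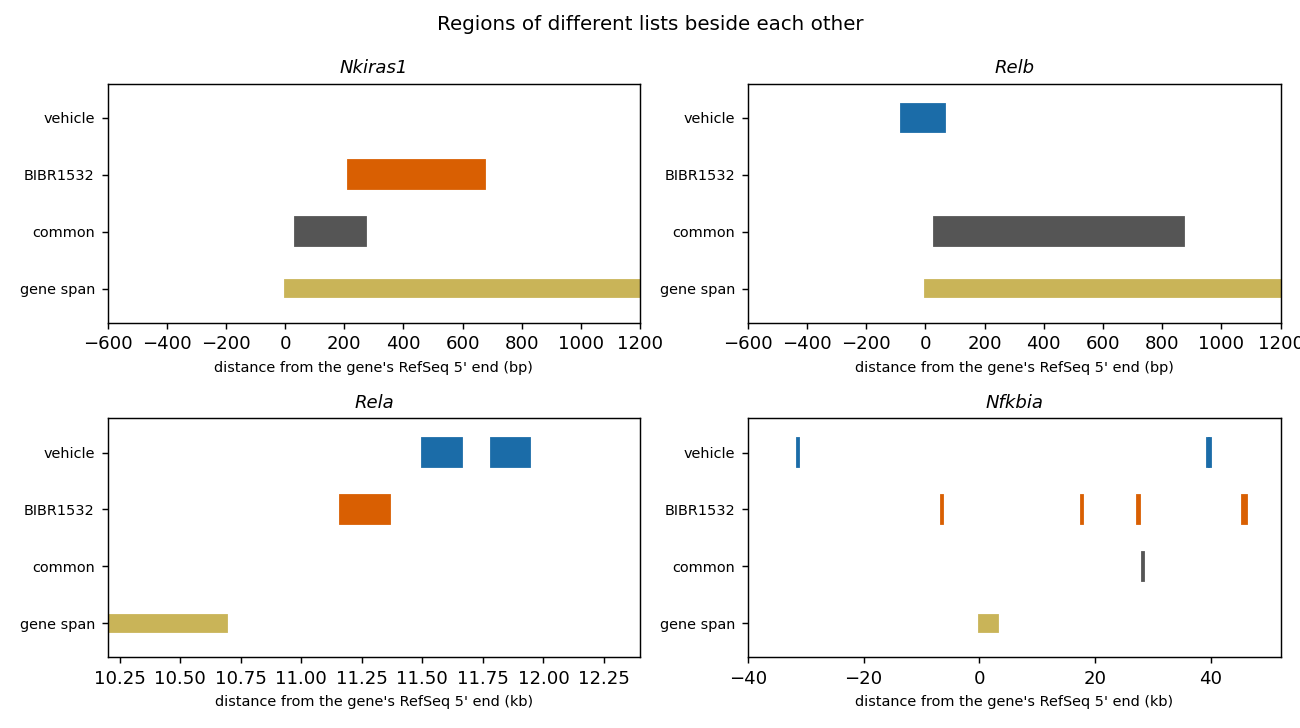
Regions of each list (rows) against distance from the 5′ end of the gene in its direction of transcription, in base pairs for Nkiras1 and Relb and in kilobases for Rela and Nfkbia, with the gene span at the bottom. Common and condition-specific regions overlap by 62 bp at Nkiras1 and 38 bp at Relb, and regions of opposite direction lie 134 bp apart beyond Rela.

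By class, the members' condition-specific regions were mostly intergenic. Of the 16, 10 were intergenic (62.5%, against 38.6% of all condition-specific regions), 7 of them at Nfkbia. In introns were 2 (12.5% against 43.9%) and at promoters 2 (12.5% against 10.2%). The members' common regions were at promoters in 3 of 6 (50% against 51.9% of all common regions). At the shared score of their list were 2 of 8 BIBR1532 regions (25.0% against 46.8%) and 4 of 8 vehicle regions (50% against 50.2%).

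The wider pathway was read from 72 other genes in 6 roles. A common promoter region was found for 18 of them (25.0%, against 14.2% of protein-coding genes), a BIBR1532 region of any kind for 22 (30.6%, against 34.5%) and a vehicle region for 31 (43.1%, against 37.5%). The kinases and their regulators held the most common promoters, 5 of 11: the scaffold gene Ikbkg, Map3k14 (the kinase of the non-canonical pathway), Tab3, Ripk1 and Ripk2. Chuk, the other catalytic subunit, had no common region but a BIBR1532 and a vehicle region within 1 kb of its start. Map3k7, the kinase upstream of the IκB kinase, had 2 BIBR1532 regions and Tab1 had 1 vehicle region within that distance.

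Other roles had fewer. Of the 5 other IκB genes, Nfkbib had a common promoter region and a vehicle region within 1 kb, and Nfkbiz the latter alone. Receptors, ligands and adaptors had common promoter regions at 4 of 19, the adaptor genes Irak4, Traf2, Malt1 and Bcl10. The receptor gene Tnfrsf1a had 2 vehicle regions within 1 kb. Ubiquitin enzymes had them at 4 of 15: the deubiquitinase gene Cyld, Btrc and Skp1 of the ligase that marks IκB, and Ube2n. Rbck1 had a common and a BIBR1532 region within 1 kb outside that class, and Otud7b and Fbxw11 a BIBR1532 region. Of 6 other regulators, Commd1 and Pdcd11 had a common promoter region, and Nkrf and Cdkn2a a vehicle region within 1 kb.

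Of the 16 NF-κB target genes, 2 (12.5%, against 14.2% of genes) had a common promoter region, the antioxidant gene Sod2 and the survival gene Bcl2l1. BIBR1532 regions named 2 of them (12.5%, against 34.5%) and vehicle regions 5 (31.2%, against 37.5%). A condition-specific region within 1 kb was found for 0 of the 16, against 21.4% of genes. Among cell type markers a common promoter region was found for 2 of 12 neuronal markers, Snap25 and Syt1 (16.7%, against 14.2% of genes). It was found for 0 of 8 microglial, 0 of 7 astrocyte, 0 of 7 oligodendrocyte lineage and 0 of 6 endothelial and mural markers. Over all 40 markers BIBR1532 regions named 20 (50%, against 34.5%) and vehicle regions 21 (52.5%, against 37.5%). By type, each of these lists named 66.7% of neuronal, 71.4% of astrocyte, 37.5% of microglial and 33.3% of endothelial and mural markers. Of oligodendrocyte lineage markers BIBR1532 regions named 28.6% and vehicle regions 42.9%. A region on chromatin does not measure expression, so the cell type label cannot be checked from these lists.

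**Figure D5:**
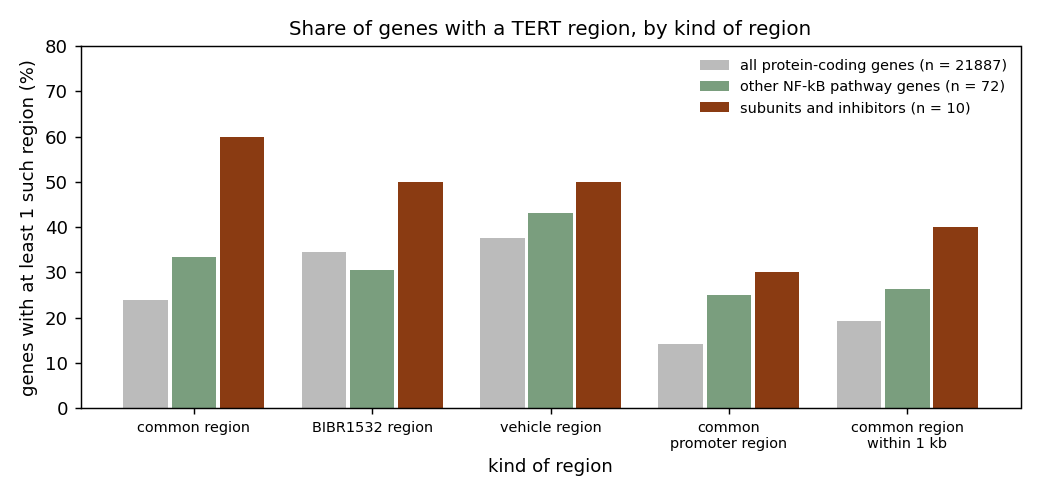
Percentage of genes with at least 1 region of each kind (vertical axis, from 0) for all 21887 protein-coding genes, the 72 other NF-κB pathway genes and the 10 subunits and inhibitors. For common regions the bars stand at 23.9%, 33.3% and 60.0%, and for BIBR1532 regions at 34.5%, 30.6% and 50%.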

How the data were processed

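Per the file headers, the authors annotated 3 deposited region lists on mm10 with annotatePeaks.pl, and the path there names a bdgdiff step on combined triplicates with a limit of 1. Per the submitters' processing notes, MACS2 2.1.2, Picard, Bowtie2 and CASAVA 1.8 were used. Their roles and the pool scaling are not given in the sources used here. The deposited score per region is the authors' value. Positions and distances are in base pairs, as deposited. Both condition-specific lists were decoded from a 7-bit text encoding, and chromosomes 1 to 19, X and Y were kept.

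Regions were assigned by the deposited gene name. Shares over genes used the 21887 protein-coding genes of the RefSeq table (GRCm38.p6), in which all 10 members matched. Strand was taken from the deposited distances. A member's promoter was the annotation class, and regions were neighbours within 1 kb. The κB consensus, GC box, E-box and telomere repeat were searched on both strands. No test was run, since each condition is 1 pool. Functions were tested on simulated intervals.

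All 10 members are described. Other pathway genes are named where a region lies within 1 kb of a start site. In the other observations they are named where at least 6 condition-specific regions name them. Members and lists were chosen with earlier results of these data known. Alternatives were score, width and distance limits, gene spans, merging, all contigs and leaving out Nfkbia. The tools were scipy 1.17.1, numpy 2.4.6, pandas 2.3.3 and matplotlib 3.10.9 under Python 3.11.15.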

Additional observations from a re-analysis of the deposited data

How the results depend on the processing

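The counts rest on few regions. At a score of at least 3, 3 members in place of 5 had a BIBR1532 region. Without the regions at the shared score, 4 vehicle regions in 3 members were left. With regions of at least 500 bp there were 1 common, 2 BIBR1532 and 1 vehicle region, each list in 1 member, and 0 members had a common promoter region. Within 10 kb of the start site there were 4 BIBR1532 regions and 1 vehicle region, the latter in 1 member, a BIBR1532 share of 80%. By RefSeq span and 5 kb upstream there were 3 BIBR1532 regions in 3 members and 1 vehicle region in 1 member (for Ikbkb, whose strand is not in the tables used, the span alone). Without Nfkbia 4 BIBR1532 and 5 vehicle regions were left. In base pairs the BIBR1532 share was 24.2%, and 68.0% without the widest region, at Nfkb1, an alternative chosen after seeing the data. The score, width and distance limits leave fewer regions by construction. The gene span is another rule of assignment: it kept 6 common regions, with 1 gained at Nkiras2 and that of Nfkbia lost. All contigs, merging within 1 kb and a score of at least 2 kept the counts over all members within 1.5 times. Per gene, a score of at least 2 removed the BIBR1532 region of Rela and the vehicle region of Relb, and merging joined the vehicle regions of Rela into 1. Of 111 counts per gene and list, 71 stayed within 1.5 times under these settings. No paired analysis was possible because the lists pool the replicates, and leaving out replicates could not be run for the same reason. Depth limits are unknown.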

Other observations

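Outside the 10 genes, 5 of the 72 pathway genes (6.94%) had at least 6 condition-specific regions, against 4.44% of protein-coding genes, a limit chosen after the values were seen. Map3k7, which encodes the kinase upstream of the IκB kinase, had 8 BIBR1532 and 9 vehicle regions and no common one. Btrc, the substrate receptor of the ligase that marks IκB, had 3 and 4. Ppp6c, a phosphatase catalytic subunit gene, had 2 and 5. The IκB kinase family gene Ikbke had 5 and 1, and the adaptor gene Tab2 had 3 and 3. Over the 72 genes there were 47 BIBR1532 and 58 vehicle regions.

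E-boxes (CACGTG) and the telomere repeat (TTAGGG on either strand) were also counted in the members' windows. Of these 9 windows, 1 at Tnfaip3 (11.1%) held an E-box and 1 at Rela (11.1%) a telomere repeat, and no region overlapped either window. Over all windows 7.15% held an E-box and 10.6% a telomere repeat. Among windows that overlapped a common region the shares were 10.4% and 10.4%.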
